A study of Mus musculus with 246 samples.

Results

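The endocannabinoid and opioid receptor genes were followed through 6 regions of the adult mouse brain. They were chosen by name and number 10 of the 56691 genes in the deposited table. The 6 genes of the endocannabinoid system are the cannabinoid receptor gene Cnr1, the diacylglycerol lipase genes Dagla and Daglb, the monoacylglycerol lipase gene Mgll, and Napepld and Faah, whose enzymes make and degrade anandamide. The other 4 are the opioid receptor genes Oprm1 (mu), Oprd1 (delta), Oprk1 (kappa) and Oprl1 (nociceptin receptor). All 10 are annotated as protein-coding and all 10 passed the filter on low counts in every region.

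RNA was sequenced from punches of 41 outbred wild-type CD1 male mice. The regions were 2 cortical areas, mPFC (medial prefrontal) and ACC (anterior cingulate), the accumbens shell (Nacc), the ventral hippocampus (vHipp), the dorsomedial part of the thalamus (DMT) and the basolateral amygdala (BLA), with 1 library per region and mouse. Ctrl_Veh mice (n = 13) were reared with standard bedding, and ELA_Veh mice (n = 14) went through early life adversity (ELA), a limitation of bedding and nesting material in the first days after birth. ELA_SAFit2 mice (n = 14) went through the same adversity while their dams carried SAFit2, an inhibitor of the glucocorticoid receptor co-chaperone FKBP51, in a slow-release gel that reached the pups through the milk. The dams of the Veh mice received the gel without the compound, and no control group with SAFit2 was among the labels. Of these mice, 21 were taken without a preceding encounter (NoInteraction, 7 per condition) and 20 after 10 minutes with an unfamiliar mouse (SocialInteraction, 6 Ctrl_Veh, 7 ELA_Veh and 7 ELA_SAFit2). Dams rather than pups were treated and the labels do not give the litters, so the p-values within a region measure the spread between mice and not between litters. In the fit of region levels the 6 libraries of a mouse entered as separate units. The mouse was a block there only in an alternative fit.

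Endocannabinoids are lipids that neurons release on demand and that act backwards across the synapse. Diacylglycerol lipases produce 2-arachidonoylglycerol, monoacylglycerol lipase removes it, and the CB1 receptor encoded by Cnr1 sits mainly on axon terminals, where it lowers transmitter release. Opioid receptors are inhibitory receptors for enkephalins, endorphins, dynorphins and nociceptin, and in the accumbens, amygdala and thalamus they are known for their roles in reward, aversion and pain.

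Estimated counts per library summed to between 20804219 and 43351397, and levels are given in CPM, counts scaled by library size and TMM factors. The identity of each library was checked with genes that differ between individual mice. In the Nacc 12 of 41 libraries, 2 in each of the 6 groups, resembled a mouse other than their labelled one, against 0 in the other regions. By the distance from their region's median profile (robust z over 3.5), 5 libraries stood apart: 2 in the ACC (both SocialInteraction) and 1 each in the Nacc, DMT and vHipp (all ELA_Veh). All were kept. Markers of the labelled tissue were present in every region, but punches also carried markers of other tissue, and some lists were high in more than 1 region. The median summed level of the thalamic markers was 2301 CPM in the DMT and at most 190.8 CPM elsewhere. The BLA libraries held 415.1 CPM of basolateral markers beside 933.7 CPM of the striatal markers, whose level in the Nacc was 2291 CPM. In the BLA the choroid plexus markers had medians of 2269 CPM (NoInteraction) and 2894 CPM (SocialInteraction). The hippocampal list was not confined to the vHipp (977.6 CPM) and was also high in the Nacc (811.8 CPM). In bulk tissue, fewer cells of a type and less RNA per cell cannot be told apart. Library numbers followed on one another through the other 5 regions, whereas those of 40 of the 41 mPFC libraries lay in an earlier series. The labels do not call these numbers a batch, and their part in differences of the mPFC from other regions was not tested.

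Sequence upstream of the transcription start was available from RefSeq (GRCm38.p6) for 8 of the 10 genes and 15 start sites. Oprl1 gave the single call of 60 tests after social interaction, where 2.64% of all tests were called. The 250 bases before the first start are shown for it and for Oprm1, which was high in the thalamus. They are also shown for the receptor gene of lowest thalamic level (Oprd1) and for Cnr1, which was also low there. They lie at chr4:33924014-33924263 (plus strand, Cnr1), chr4:132144487-132144736 (minus strand, Oprd1), chr10:6758343-6758592 (plus strand, Oprm1) and chr2:181714766-181715015 (plus strand, Oprl1). Each is written 5′ to 3′ along the gene, with matches to the searched motifs on either strand in capitals.
Cnr1: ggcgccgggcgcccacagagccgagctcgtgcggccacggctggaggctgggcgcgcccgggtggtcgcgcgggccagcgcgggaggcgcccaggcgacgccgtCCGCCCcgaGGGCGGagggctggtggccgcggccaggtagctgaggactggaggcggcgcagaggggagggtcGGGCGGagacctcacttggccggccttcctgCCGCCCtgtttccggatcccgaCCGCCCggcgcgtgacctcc
Oprd1: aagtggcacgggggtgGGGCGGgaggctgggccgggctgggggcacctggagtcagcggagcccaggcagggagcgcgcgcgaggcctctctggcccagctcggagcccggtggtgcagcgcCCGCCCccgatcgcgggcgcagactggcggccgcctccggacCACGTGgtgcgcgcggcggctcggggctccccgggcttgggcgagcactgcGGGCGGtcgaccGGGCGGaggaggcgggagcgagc
Oprm1: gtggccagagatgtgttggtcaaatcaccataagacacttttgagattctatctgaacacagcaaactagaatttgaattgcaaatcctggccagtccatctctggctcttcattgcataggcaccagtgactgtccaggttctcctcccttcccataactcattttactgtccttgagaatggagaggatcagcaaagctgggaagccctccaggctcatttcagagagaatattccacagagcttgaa
Oprl1: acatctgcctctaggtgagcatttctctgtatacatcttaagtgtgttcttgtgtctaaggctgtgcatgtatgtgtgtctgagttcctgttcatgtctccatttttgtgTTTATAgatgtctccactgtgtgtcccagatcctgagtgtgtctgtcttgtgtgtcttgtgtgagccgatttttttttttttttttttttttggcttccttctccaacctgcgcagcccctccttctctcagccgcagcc

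At the first starts, the stretches before Cnr1 and Oprd1 were GC-rich, with 79.2% and 80.0% G or C. Those before Oprm1 and Oprl1 held 45.6% and 44.4%. The GC box (GGGCGG) matched 5 times before Cnr1 and 4 times before Oprd1 and had 0 matches before Oprm1 and Oprl1. Over 32851 promoters of the same length it occurred in 32.7%. An E box (CACGTG), present in 6.02% of promoters, matched once before Oprd1, and a TATA box (TATAAA), present in 12.4%, matched once before Oprl1. The palindromic glucocorticoid response element, found in 0.0304% of promoters, and the cAMP response element (TGACGTCA), found in 1.55%, had 0 matches at any of the 15 start sites. The motif matches did not overlap one another. The GC content and the matches given by gene hold for the first start only, and further starts of a gene need not share them. Whether GC content or motifs go with the thalamic level was not tested.

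The first question was where each gene was expressed. Each of the 6 regions was contrasted with the mean of the 5 others, and a gene was called where edgeR's quasi-likelihood test gave a Benjamini-Hochberg adjusted p under 0.05 together with a difference over 2-fold. Of the 60 contrasts of the 10 genes, 18 were called. The mPFC had 2 calls (7.43% of all tested genes were called there), the ACC 2 (7.98%), the BLA 2 (8.48%), the Nacc 4 (9.39%), the vHipp 4 (11.1%) and the DMT 4 (18.4%). By the adjusted p alone, 137 of 150 pairwise comparisons of regions were called, beside 75.3% over all genes. The count was 138 without the mismatched Nacc libraries and 139 without the libraries that stood apart. All 18 kept their direction and call with RLE factors, limma-voom, no filter, the mouse as a block, and without the mismatched Nacc libraries or the libraries that stood apart. The genes differed widely in how regional they were. The highest regional mean exceeded the lowest by 57.7-fold for Oprd1, 33.9-fold for Oprk1, 8.68-fold for Oprm1 and 7.42-fold for Cnr1. The factor was 6.61 for Napepld, 4.01 for Faah, 2.21 for Dagla, 2.03 for Mgll, 1.52 for Daglb and 1.40 for Oprl1, beside a median of 1.49 over 13764 expressed genes.

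Among the receptors, Oprd1 showed the widest range. Its level was 0.0979 CPM in the lowest DMT library, 0.484 CPM in the median one and 2.17 CPM in the highest, and in the ACC 10.5, 33.6 and 41.1 CPM. Every DMT library thus lay below every library of the other 5 regions, where the lowest value was 8.36 CPM in the vHipp. The DMT stood 5.30 below the mean of the others on the log2 scale (SE 0.0836, edgeR adjusted p = 2.93e-149), and the ACC (log2 1.71), Nacc (1.46), mPFC (1.33) and BLA (1.02) were above it. These DMT libraries held 3 to 60 Oprd1 counts each, so that differences within the DMT rest on few reads. The interneuron markers Pvalb, Sst and Gad1, of cells in which the delta receptor is known, were also low in the DMT, with a median sum of 32.6 CPM against 420.5 to 945.4 CPM elsewhere, and their part in the Oprd1 level was not tested. The Nacc and mPFC, which follow the ACC, could not be separated (log2 difference 0.11, SE 0.062, edgeR adjusted p = 0.106).

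Oprk1, the receptor for dynorphin, was high in the Nacc. Its libraries there ranged from 32.1 CPM over a median of 61.1 CPM to 93.5 CPM, followed by the BLA (10.3, 31.9 and 46.0 CPM), the DMT (13, 20.7 and 26.9 CPM) and the ACC (6.16, 14 and 23.9 CPM). The mPFC ranged from 1.38 to 23.5 CPM with a median of 5.42 CPM, and the vHipp from 0.894 to 3.69 CPM with a median of 1.69 CPM. Nacc and vHipp libraries did not overlap, whereas Nacc and BLA libraries did in part. The Nacc lay 2.61 above (SE 0.0669, edgeR adjusted p = 2.83e-103) and the vHipp 3.48 below (SE 0.112, edgeR adjusted p = 1.32e-84) the mean of the others on the log2 scale. The BLA was above it (1.43) and the mPFC below it (−1.31), and all 15 pairs of regions differed.

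Oprm1, the receptor of morphine and the endorphins, had its highest level in the DMT. The DMT libraries ranged from 4.78 to 24.2 CPM with a median of 16.8 CPM, against medians of 6.77 CPM in the Nacc and 6.45 CPM in the BLA. Medians in the mPFC, vHipp and ACC were 2.60, 2.20 and 1.87 CPM, or 51 to 74 counts. The DMT difference from the other regions was 2.28 on the log2 scale (SE 0.0576, edgeR adjusted p = 1.04e-105), while the ACC (−1.46) and vHipp (−1.23) were below. The lowest DMT library lay within the range of the Nacc, whose highest value was 9.21 CPM, and 4 DMT libraries, up to 10.3 CPM, lay below the highest BLA library (10.4 CPM). The Nacc and BLA means of 6.49 and 6.43 CPM were not separated (log2 0.01, SE 0.0854, edgeR adjusted p = 0.933). The vHipp and ACC were separated with the mouse as a block (edgeR adjusted p = 0.0325) but not without it (0.0667). Exons of Oprm1 overlap Ipcef1 on the opposite strand, and likewise those of Mgll overlap Gm26588 and those of Daglb overlap Rac1. The library kit keeps the strand, but whether the counting used it is not given in the sources used here.

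Oprl1, the nociceptin receptor, was the most even of the 4 receptors. Regional means ran from 36.7 ± 2.86 CPM in the vHipp (SD, n = 41) over 40.4 ± 4.91 CPM in the Nacc, 43.2 ± 3.29 CPM in the ACC, 45.1 ± 3.88 CPM in the mPFC and 48.3 ± 5.79 CPM in the BLA to 51.2 ± 4.59 CPM in the DMT. None of its 6 contrasts passed the 2-fold limit, although 14 of 15 pairs of regions differed by the adjusted p alone, all but the mPFC and ACC (edgeR adjusted p = 0.103). Levels of different genes can be compared only per length, for which CPM were divided by the exon length of the gene. On that scale Oprl1 made up 42.6% ± 6.38 of the 4 receptors in the Nacc (SD, n = 41), between 53.9% and 61.5% in the ACC, BLA and mPFC, and 75.5% ± 3.49 and 75.7% ± 2.10 in the DMT and vHipp. Oprd1 followed with 37.7% ± 4.64 in the ACC and 33.3% ± 3.70 in the mPFC and was 0.789% ± 0.603 in the DMT. The share of Oprk1 was 26.6% ± 4.83 in the Nacc, 15.1% ± 3.28 in the BLA and 1.56% ± 0.50 in the vHipp. Oprm1 accounted for 11.4% ± 2.65 in the DMT and at most 3.52% ± 0.641 elsewhere. The 4 receptors together came to 25.5 ± 1.97 CPM per kb in the Nacc and 12.9 ± 0.987 CPM per kb in the vHipp. These shares and sums rest on the annotated exon lengths, among them 9.15 kb for Oprk1 and 3.75 kb for Oprl1. In CPM Oprk1 was the higher in the Nacc, with a mean of 62.5 CPM against 40.4 CPM for Oprl1.

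**Figure D1:**
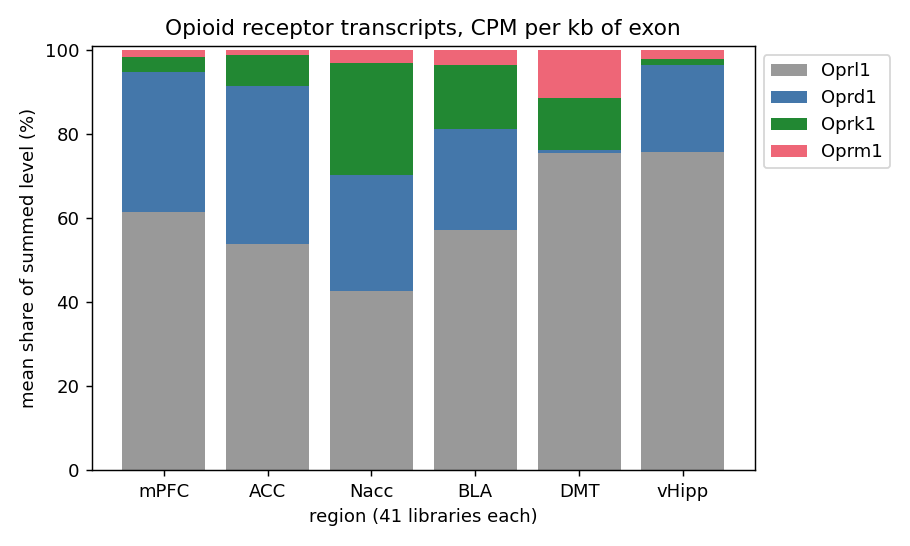
Share of each opioid receptor gene in the summed level of the 4 genes per kb of exon, in percent, as the mean over 41 mice per region. Oprl1 makes up over 75% in the DMT and vHipp and 42.6% in the Nacc, where Oprk1 and Oprd1 hold 26.6% and 27.6%. The shares rest on the annotated exon lengths.

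Transcripts of the peptide precursors were set beside the receptors in the same regions, while the peptides themselves were not measured. Penk, the precursor of the enkephalins, stood at 956 ± 191 CPM in the Nacc (SD, n = 41) and 622.9 ± 219.8 CPM in the BLA, and at 6.66 ± 4.57 CPM in the DMT. Pdyn, the dynorphin precursor, stood at 229.7 ± 56.9 CPM in the Nacc, 102.8 ± 35.1 CPM in the BLA and 7.39 ± 6.0 CPM in the DMT. The Nacc was thus high in Oprk1 and in Pdyn, and the DMT low in Oprd1 and in Penk. Other pairs did not match. Penk was lower in the ACC (log2 −1.05, edgeR adjusted p = 2.63e-12), where Oprd1 was highest, and the DMT, low in Penk, was highest in Oprm1. Pnoc, the nociceptin precursor, ranged from 4.15 CPM in the Nacc to 10.8 CPM in the BLA, and Pomc, the endorphin precursor, from 0.764 to 1.44 CPM.

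In the endocannabinoid system, Cnr1 had the widest range of regional means, although it differed in 12 of 15 pairs of regions and Napepld in 15. The 41 DMT libraries lay between 23.7 and 60.6 CPM with a median of 41.2 CPM, whereas the vHipp libraries lay between 205.6 and 412.9 CPM with a median of 293.8 CPM. The DMT libraries were all below those of the other 5 regions, in which the lowest was 75.2 CPM in the Nacc. The DMT difference was −2.50 on the log2 scale (SE 0.0517, edgeR adjusted p = 7.97e-124). Means in the ACC, mPFC and BLA were 250.1 ± 25.6, 237.8 ± 21.7 and 232.8 ± 28.0 CPM (SD, n = 41), and neither the ACC and mPFC (edgeR adjusted p = 0.312) nor the mPFC and BLA (0.626) could be separated. The Nacc libraries spread from 75.2 to 368.7 CPM, a coefficient of variation of 35.8% against 9.11% to 17.4% elsewhere. The cortical glutamatergic markers in the same libraries spread from 27.7 to 1258 CPM, and their part in the spread of Cnr1 was not tested.

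The genes of the enzymes that make 2-arachidonoylglycerol differed in their regional order. Dagla, which supplies most of it in the adult brain, was highest in the vHipp (222.9 ± 18.4 CPM, SD, n = 41) and DMT (186.3 ± 19.0 CPM), followed by the ACC (158.1 ± 11.9 CPM), mPFC (138.5 ± 16.2 CPM), BLA (108.8 ± 7.46 CPM) and Nacc (101.1 ± 9.20 CPM). All 15 pairs differed, although neighbouring regions overlapped. Daglb, its paralogue, was highest in the mPFC and ACC, with means of 50.9 ± 4.78 and 50.1 ± 3.14 CPM that were not separated (edgeR adjusted p = 0.461), and lay between 33.4 and 36.9 CPM in the other regions. Per length the level of Dagla exceeded that of Daglb by 4.51-fold in the mPFC, 8.95-fold in the DMT and 10.0-fold in the vHipp, as ratios of geometric means. Neither gene passed the 2-fold limit in any region.

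Mgll, whose enzyme ends the action of 2-arachidonoylglycerol, was lowest in the BLA. Its libraries there ranged from 101.4 to 158.2 CPM with a median of 124.8 CPM, against 216.9 to 295.4 CPM with a median of 257.8 CPM in the ACC, and these groups did not overlap. Means in the DMT and mPFC, 241.3 ± 23 and 233.2 ± 18.5 CPM, were not separated (edgeR adjusted p = 0.119), and the vHipp and Nacc stood at 204.4 ± 12.2 and 186.6 ± 24.0 CPM (SD, n = 41). The ratio of the transcripts of the removing enzyme and of the producing enzyme Dagla thus varied by region, while the enzymes themselves were not measured. Per length Mgll exceeded Dagla by 2.08-fold in the Nacc (mean log2 ratio 1.06 ± 0.185, SD, n = 41), 1.91-fold in the mPFC and 1.85-fold in the ACC. The excess was 1.47-fold in the DMT and 1.31-fold in the BLA, and in the vHipp the ratio was 1.04 (log2 0.06 ± 0.129), with libraries from −0.30 to 0.38 on both sides of an equal level. These ratios rest on the annotated exon lengths, 5.08 kb for Mgll and 5.75 kb for Dagla. In CPM Dagla was the higher in the vHipp, with a mean of 222.9 CPM against 204.4 CPM for Mgll.

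The genes of anandamide turnover were both low in the Nacc. Napepld had a median of 7.96 CPM there (6.01 to 11.5 CPM) against 53.1 CPM in the DMT (31.8 to 68.0 CPM) and 45.9 CPM in the vHipp (31.7 to 57.3 CPM). No Nacc library reached any library of the other 5 regions, the lowest of which was at 11.7 CPM in the BLA. The differences were −1.80 for the Nacc (SE 0.0426, edgeR adjusted p = 3.22e-110), 1.47 for the DMT and 1.2 for the vHipp on the log2 scale. Faah, the hydrolase of anandamide, was highest in the vHipp, with a median of 184.6 CPM (154.6 to 212.5 CPM), all above the other regions, and lowest in the Nacc, with 44.8 CPM (29.1 to 92.1 CPM). The vHipp stood at 1.21 (SE 0.0327, edgeR adjusted p = 5.02e-99) and the Nacc at −1.19 (SE 0.0394, edgeR adjusted p = 4.32e-82) on the log2 scale. Per length Faah exceeded Napepld by between 2.06-fold and 2.88-fold in 5 regions. In the DMT the order was the opposite, with a ratio of 0.677 (mean log2 ratio −0.56 ± 0.142, SD, n = 41) and every one of the 41 libraries below 0. This order rests on the annotated exon lengths, 7.83 kb for Faah and 3.96 kb for Napepld. In CPM Faah was the higher in the DMT too, with medians of 71.9 and 53.1 CPM.

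Other genes of both systems, from 2 lists, were tested in the same fit. Of 17 tested endocannabinoid genes, at most 3 were called in a region, in the DMT and in the vHipp, where 18.4% and 11.1% of all genes were called. Ptgs2, the cyclooxygenase that oxidises endocannabinoids, was lower in the DMT (log2 −3.23, SE 0.114, edgeR adjusted p = 1.64e-77) and higher in the vHipp (1.78), mPFC (1.40) and ACC (1.27). Plcb1 and Plcb4 encode phospholipases that supply diacylglycerol, and they went opposite ways in the DMT, at −2.30 and 2.91 on the log2 scale. Of 13 opioid genes, 3 were higher in the BLA (8.48% of all genes called), 3 lower in the vHipp (11.1%) and 1 higher in the mPFC (7.43%). In the ACC (7.98%) 1 was higher and 1, Penk, was lower (−1.05). In the Nacc (9.39%) 4 were called, all higher: Penk (4.38), Rgs9 (3.83), Pdyn (3.11) and Mme, the enkephalin-degrading neprilysin (2.0). In the DMT (18.4%) 1 was higher (Rgs4, a regulator of G-protein signalling, 1.06) and 4 were lower, Penk (−4.21), Pdyn (−2.86), Rgs9 (−2.28) and the prohormone convertase gene Pcsk1 (−1.02). The median log2 difference over the opioid list in the Nacc was −0.28, beside 0.00214 over all genes.

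The genes most like each of the 10 were sought among 13764 genes by the Pearson correlation of log2 CPM over all libraries after region and group means were removed. These values are descriptions over libraries that share mice and punches. Oprd1 was most like Sst (r = 0.653), Gad1 (0.624) and Slc32a1 (0.613), genes of inhibitory neurons. Oprk1 was most like Kazn (0.588), St8sia3 (0.584) and the dopamine receptor gene Drd1 (0.572). Faah was most like the Nogo receptor gene Rtn4r (0.889) and Olfm1 (0.885), Dagla like Adgrl1 (0.771), Mgll like Prkcz (0.727), Oprm1 like Aff4 (0.764) and Oprl1 like Magee1 (0.675). Cnr1 was most like Golga7b (0.676), Daglb like Ndrg3 (0.627) and Napepld like the GABA-B receptor gene Gabbr2 (0.661), with Faah in its leading 3 (0.621). Among the 10 genes themselves, Dagla and Mgll went together within every region, with a median r of 0.707 over the 6 regions (0.343 to 0.804). Faah and Napepld had a median r of 0.636 (0.383 to 0.879), whereas Faah and Oprm1 had one of −0.513 (−0.752 to 0.059).

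Whether a level was a trait of the mouse was described by correlating the deviations of the same mice between regions, without the Nacc. The median r over 10 pairs of regions was 0.258 for Napepld, 0.211 for Daglb and 0.191 for Cnr1, beside 0.124 over all genes, 0.013 for Oprl1 and −0.079 for Faah. Of the 10 genes Napepld thus varied most between mice in the same way across regions, although its pairs of regions spread from −0.122 to 0.765.

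Levels were next set against markers of cell types that the punches could hold, over the 41 mice of a region and after group means were removed. For 11 pairs of gene and list the correlation was computed, with 100000 permutations each, and the smallest p these can give is 1e-05. The genes and lists were chosen with earlier results of these data known, and the adjustment covers only these 11 pairs. Oprm1 in the BLA rose with markers of the intercalated cells (r = 0.676, permutation p = 1e-05, adjusted over the 11 pairs 5.5e-05, rho = 0.632, permutation p = 3e-05, n = 41), and r was 0.624 without the 2 farthest libraries. Intercalated cells are inhibitory neurons at the borders of the BLA and are known for mu receptors. The list is not particular to them. Its medians were 589.5 and 548.5 CPM in the Nacc (NoInteraction and SocialInteraction) against 313.0 and 305.5 CPM in the BLA. Oprm1 was not set against the striatal list in the BLA, so which cells the relation follows was not tested. Cnr1 in the vHipp rose with markers of cholecystokinin interneurons, which carry much of the CB1 receptor (r = 0.696, permutation p = 2e-05, adjusted 7.33e-05, rho = 0.675, permutation p = 1e-05), with r = 0.717 without the 2 farthest libraries. In the BLA the same pair did not pass (r = 0.249, permutation p = 0.116, adjusted 0.159, rho = 0.256, permutation p = 0.107, r without 2 libraries 0.416). The list (Cck, Vip and Sncg) had medians of 169.1 and 186.9 CPM in the vHipp (NoInteraction and SocialInteraction). It had 167.3 and 165.9 CPM in the DMT, where Cnr1 was lowest, so it need not mark these interneurons alone. Oprd1 in the vHipp rose with the interneuron markers (r = 0.574, permutation p = 0.00013, adjusted 0.000357, rho = 0.559, permutation p = 0.00017, r without 2 libraries 0.553).

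In the Nacc, Oprm1 rose with the striatal markers (r = 0.431, permutation p = 0.0053, adjusted 0.00972, rho = 0.428, permutation p = 0.00562, r without 2 libraries 0.516). Oprk1 in the mPFC fell with olfactory bulb markers, which do not belong to that region (r = −0.633, permutation p = 1e-05, adjusted 5.5e-05, rho = −0.537, permutation p = 0.00038, r without 2 libraries −0.527). Those markers spanned 8.95 to 414.5 CPM in the mPFC libraries. The relation of Oprk1 to claustrum markers in the ACC (r = 0.461, permutation p = 0.00319, adjusted 0.00702) rested on 2 libraries, since r was 0.281 without them and rho was 0.264 (permutation p = 0.095, adjusted 0.167). The other 5 pairs did not pass, among them Oprm1 and the medial habenula markers in the DMT (r = −0.105, permutation p = 0.508, rho = −0.201, permutation p = 0.206). Those markers spanned 5.53 to 326.4 CPM in the DMT.

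**Figure D2:**
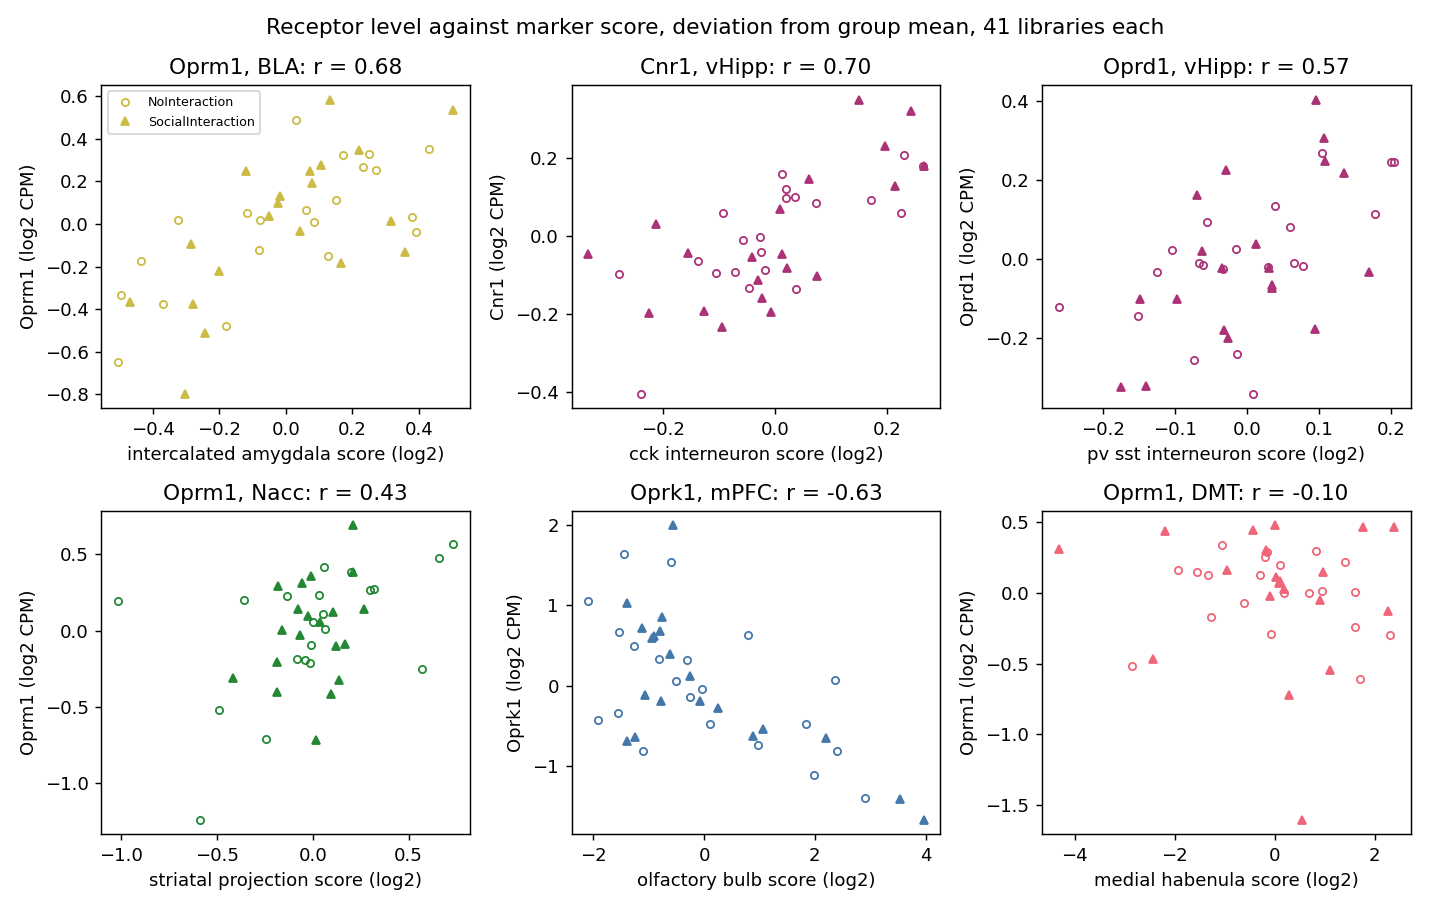
Level of a receptor gene against the mean level of a marker list, both as log2 deviations from the group mean, with 1 point per mouse (n = 41 per panel). Oprm1 in the BLA (r = 0.676) and Cnr1 in the vHipp (r = 0.696) rise along the lists, and Oprk1 in the mPFC falls along the olfactory bulb list (r = −0.633).

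The study asked whether early life adversity left a trace in adult gene expression and whether SAFit2 changed it. For these 10 genes no difference passed the adjusted threshold in any region. In ELA_Veh against Ctrl_Veh over both sets, 0 of 60 tests were called by edgeR and 0 by DESeq2, where edgeR called 1 of 94976 tests over all genes (0.00105%). At an unadjusted p under 0.05 there were 2 of 60, beside 4.52% over all genes. In ELA_SAFit2 against ELA_Veh, which shares the ELA_Veh mice, 0 of 60 were called by both tools, 3 of 94976 tests over all genes by edgeR (0.00316%), and 4 of 60 had an unadjusted p under 0.05, beside 5.08%. Within the NoInteraction mice the counts at an unadjusted p under 0.05 were 2 for ELA_Veh against Ctrl_Veh (4.75% over all genes), 2 for ELA_SAFit2 against ELA_Veh (5.04%) and 4 for ELA_SAFit2 against Ctrl_Veh (3.28%). Within the SocialInteraction mice they were 2 (4.0%), 2 (3.7%) and 2 (3.97%). After adjustment edgeR and DESeq2 called 0 in all of these, and over all genes edgeR called 0.0% of tests in 5 of the comparisons and 0.0011% in ELA_SAFit2 against ELA_Veh after social interaction. With the 6 regions of a mouse summed, 0 of 10 genes had an unadjusted p under 0.05 in either comparison, beside 6.69% and 5.6% of all genes, and 0 were called by either tool. In these sums 12 of 41 Nacc libraries resembled another mouse, so a sum can mix mice.

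**Figure D3:**
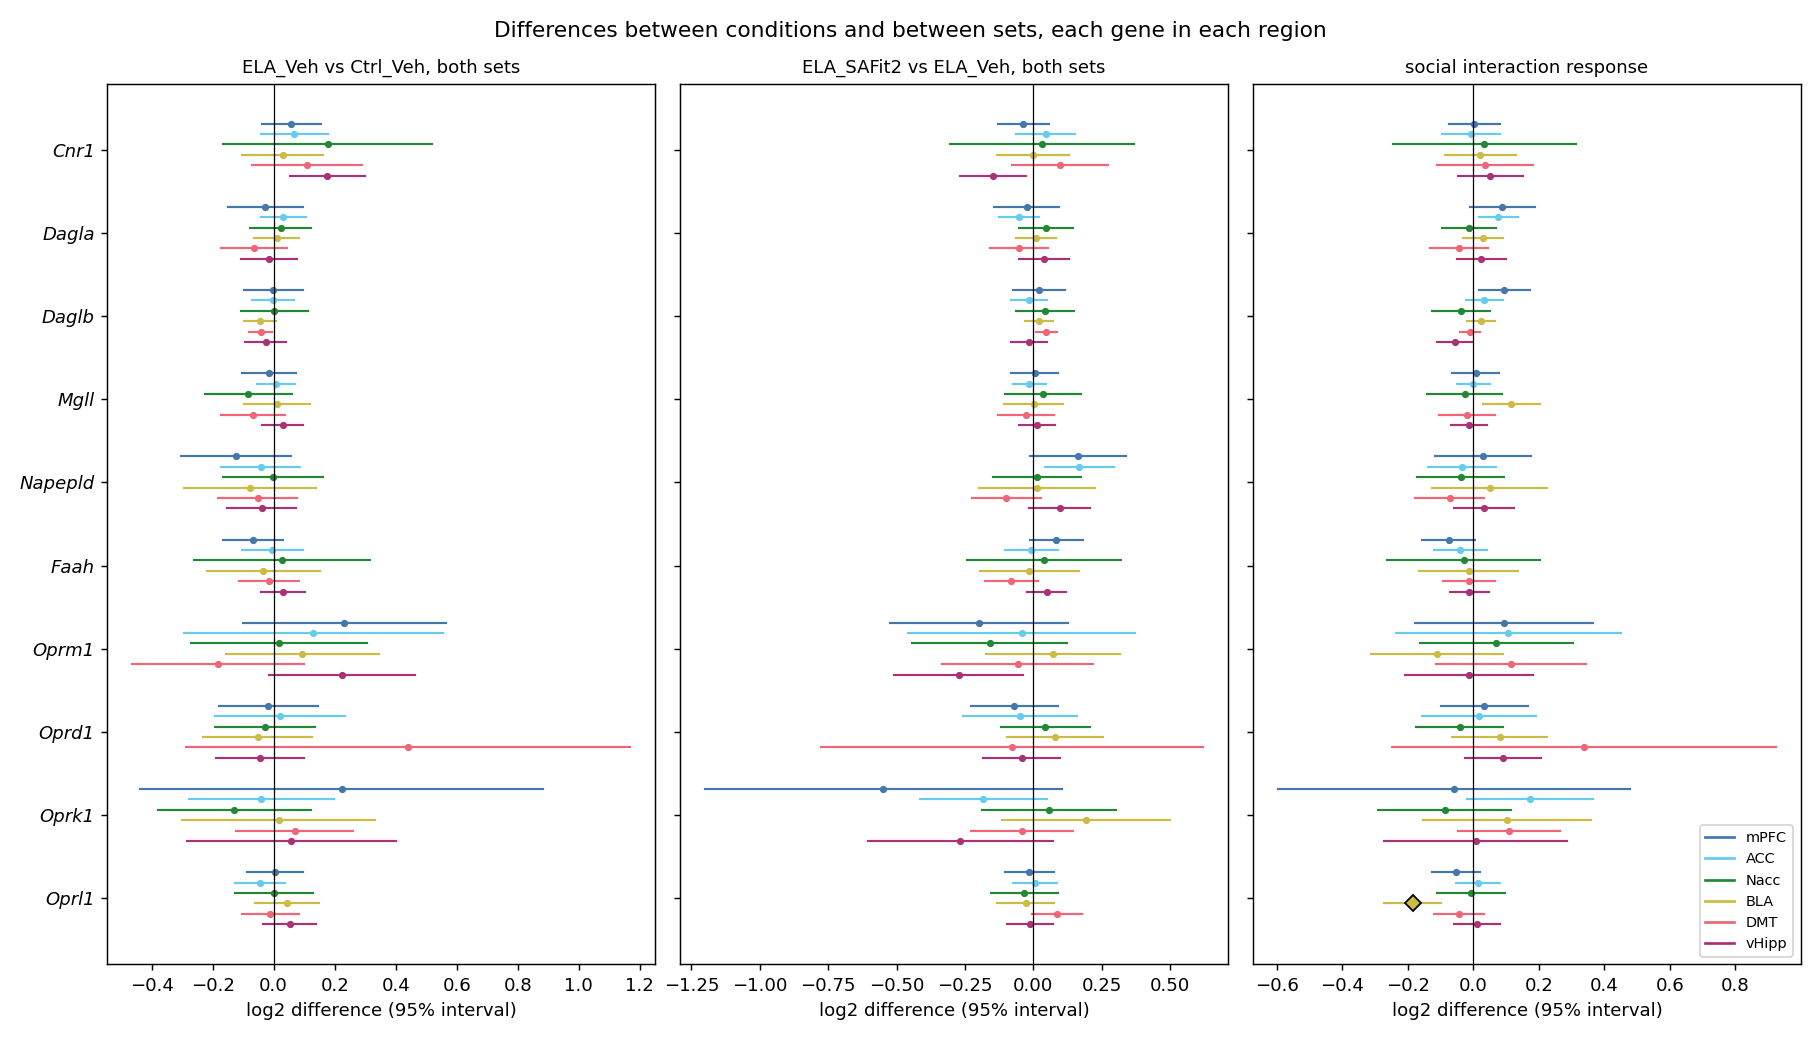
Log2 differences of the 10 genes in 6 regions for ELA_Veh against Ctrl_Veh, ELA_SAFit2 against ELA_Veh and SocialInteraction against NoInteraction, from edgeR over all 41 mice of a region. Most effects lie near 0, those of Oprd1 in the DMT and Oprk1 in the mPFC are the least precise, and the marked one is Oprl1 in the BLA (−0.19).

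Cnr1 in the vHipp had the smallest unadjusted p of the 10 genes in the first comparison. Its level was 248.7, 281.1 and 325.7 CPM (lowest, median, highest) in Ctrl_Veh, 275.5, 305.6 and 412.9 CPM in ELA_Veh and 205.6, 292.8 and 352.1 CPM in ELA_SAFit2. The 3 groups overlapped. ELA_Veh stood 0.18 above Ctrl_Veh on the log2 scale (SE 0.0629, 95% interval 0.05 to 0.30, edgeR unadjusted p = 0.00813, adjusted p = 0.708), and ELA_SAFit2 0.15 below ELA_Veh (SE 0.0616, 95% interval −0.27 to −0.03, edgeR adjusted p = 0.826). Both values use the same ELA_Veh mice, so they are not independent, and the group's values by set were 317.0 ± 28.0 CPM (SD, n = 7) in NoInteraction and 328.6 ± 61.6 CPM (n = 7) in SocialInteraction. Without the vHipp library that stood apart, an ELA_Veh one, the first difference was 0.15 (edgeR adjusted p = 0.921).

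The precision differed between genes. For ELA_Veh against Ctrl_Veh the standard errors over the regions lay between 0.0197 and 0.0559 on the log2 scale for Daglb, between 0.0318 and 0.0728 for Mgll and between 0.0377 and 0.0620 for Dagla. The 95% intervals of these 3 genes reached no further than −0.23 and 0.12. They were wider for the scarce receptors, with bounds of −0.44 and 0.88 over the regions for Oprk1, −0.46 and 0.57 for Oprm1 and −0.29 and 1.17 for Oprd1. The last of these bounds comes from the DMT, where a library held 3 to 60 counts of Oprd1. Bounds were also wide for the more abundant Cnr1 (−0.17 and 0.52) and Faah (−0.26 and 0.31). In Napepld, which was higher in the ACC of ELA_SAFit2 than of ELA_Veh mice by 0.17 on the log2 scale, edgeR's adjusted p was 0.663, the smallest of the 60 in that comparison. The effects were also tested for a difference between the sets. None of the 60 differences was called for either comparison, 0 and 1 had an unadjusted p under 0.05 (4.77% and 3.99% over all genes, with 0.0% and 0.0232% called), and the latter was Oprk1 in the Nacc (log2 −0.55, edgeR adjusted p = 0.513), where 12 libraries matched another mouse. DESeq2 called 0 in both as well.

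The last comparison asked what 10 minutes with an unfamiliar mouse left in the transcriptome, with the 3 conditions weighted equally. Oprl1 in the BLA was the single call of 60, lower after social interaction. It was at 42.9, 49.3 and 63.8 CPM (lowest, median, highest) in the 21 NoInteraction mice and at 36.2, 44.7 and 55 CPM in the 20 SocialInteraction mice, so that the groups overlapped over most of their range. The difference was −0.19 on the log2 scale (SE 0.0438, 95% interval −0.27 to −0.10, edgeR adjusted p = 0.0235), from 51.3 ± 5.58 CPM (SD, n = 21) to 45.3 ± 4.29 CPM (n = 20). In the BLA 1.49% of all tested genes were called, 0.669% as lower, and over the 6 regions 2.64% were, so that 1 of 60 is near the background. At an unadjusted p under 0.05 there were 5 of 60, beside 13.2%. The adjusted p lay between 0.00566 and 0.0489 over the alternatives and between 0.0130 and 0.0464 when each mouse was left out in turn.

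By condition the difference in Oprl1 was −0.20 in Ctrl_Veh (50.8 ± 3.81 against 44.4 ± 2.17 CPM, n = 7 and 6), −0.28 in ELA_Veh (53.9 ± 6.63 against 44.4 ± 2.58 CPM, n = 7 and 7) and −0.08 in ELA_SAFit2 (49.1 ± 5.62 against 46.8 ± 6.58 CPM, n = 7 and 7). None of these 3 passed edgeR's adjusted threshold (adjusted p = 0.532, 0.307 and 0.892, where 0.0% of all genes were called in each arm), and the difference between the conditions did not either (0.977 for ELA_SAFit2 against ELA_Veh, 1 for ELA_Veh against Ctrl_Veh). In ELA_Veh the groups did not overlap, with 48.3 CPM as the lowest NoInteraction and 47.6 CPM as the highest SocialInteraction value. Marker lists in the BLA were set beside this result, since its punches varied. No gene of the striatal, cortical, basolateral or choroid plexus lists was called, and their median log2 differences were 0.22, 0.21, 0.14 and 0.12. With the mean levels of the striatal, basolateral and choroid plexus lists as covariates, an alternative added after the values were seen, Oprl1 stood at −0.17 (edgeR adjusted p = 0.0370).

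**Figure D4:**
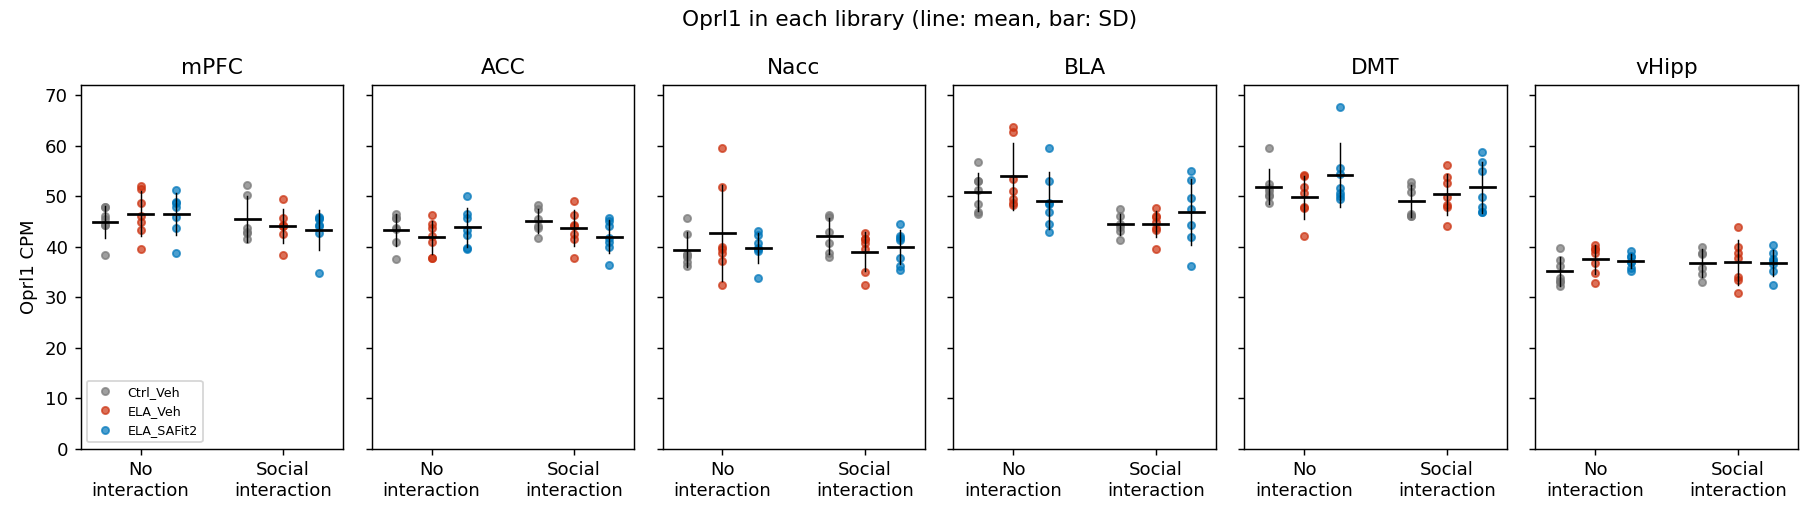
Level of Oprl1 in the BLA in CPM by condition and set, with 1 point per mouse and the mean ± SD of 6 or 7 mice. The means without and with social interaction are 53.9 and 44.4 CPM in ELA_Veh, 50.8 and 44.4 CPM in Ctrl_Veh, and 49.1 and 46.8 CPM in ELA_SAFit2.

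With the 6 regions of a mouse summed, Oprl1 was again the single call among the 10 genes, at a far smaller size. The mean over the regions was 42.7, 44.6 and 47.2 CPM (lowest, median, highest) in NoInteraction and 41.6, 43 and 46.2 CPM in SocialInteraction mice, which overlapped. The difference was −0.05 on the log2 scale (SE 0.0141, edgeR adjusted p = 0.0197), in a comparison in which 8.56% of 17381 genes were called and 22.4% had an unadjusted p under 0.05. Without the filter on low counts the call was lost (edgeR adjusted p = 0.0574). The BLA counts are part of this sum, and so are those of the 12 Nacc libraries that resembled another mouse.

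Of the other 9 genes none was called. Mgll in the BLA was at 121.4 ± 12 CPM in NoInteraction (SD, n = 21) and 132.0 ± 13.4 CPM in SocialInteraction (n = 20), a difference of 0.12 on the log2 scale (edgeR adjusted p = 0.182, and 0.0459 with the marker covariates). Dagla in the ACC was at 153.8 ± 9.01 CPM (n = 21) and 162.6 ± 13 CPM (n = 20), a difference of 0.08 (edgeR adjusted p = 0.169). Without the 2 ACC libraries that stood apart, both from SocialInteraction mice, the latter was 165.7 ± 9.56 CPM (n = 18), the difference 0.11 and edgeR's adjusted p 0.00500. Daglb in the mPFC stood at 49.3 ± 3.92 and 52.6 ± 5.10 CPM (edgeR adjusted p = 0.164).

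Among the other genes of both systems, 4 of 172 tests were called as higher and 1 as lower after social interaction, beside 2.64% of all tests called in either direction. Pcsk1, the convertase that cuts opioid precursors, was higher in the mPFC (log2 0.29, SE 0.0454, edgeR adjusted p = 3.84e-05) and in the ACC (0.20, SE 0.0574, edgeR adjusted p = 0.0352). Pnoc, the precursor of the ligand of Oprl1, was higher in the mPFC (0.22, SE 0.0593, edgeR adjusted p = 0.0145). Of all genes 7.4% were called in the mPFC, 4.15% in the ACC and 1.6% in the DMT. Plcb1 was higher in the DMT (0.18, SE 0.0472, edgeR adjusted p = 0.0317), and Fabp7, a lipid carrier of astrocytes, was lower in the ACC (−0.40, SE 0.110, edgeR adjusted p = 0.0269). With the regions summed, Pcsk1 was higher (0.17, edgeR adjusted p = 0.000969) and Grk3, a kinase that desensitises opioid receptors, lower (−0.06, edgeR adjusted p = 0.0131). In the comparisons of ELA_Veh with Ctrl_Veh and ELA_SAFit2 with ELA_Veh over both sets, edgeR called 0 of 172 tests of these genes, with 13 and 11 at an unadjusted p under 0.05, beside 4.52% and 5.08% over all genes.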

How the data were processed

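RNA from punches was sequenced as stranded poly-A libraries. The authors deposited estimated counts per gene, merged from salmon and not scaled for depth or length, and their processing notes name STAR, DESeq2 and GRCm39. Of these values 12.1% were not whole, and all were rounded here. Depth was 20804219 to 43351397 counts per library. No pair of libraries was a copy of another. Groups came from the titles of the samples.

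Of the gene identifiers, 52073 matched GENCODE M21 (GRCm38), which gave types and exon lengths, RefSeq symbols typed 978 more, and 3640 had no type and were not tested. In every region, genes that code for proteins entered the test if their counts summed to 100 or more and were above 0 in 6 or more libraries. Testing used edgeR 4.0.16 (TMM, quasi-likelihood, Benjamini-Hochberg adjustment over all genes) in R 4.3.3. Region levels were fitted over all libraries together. Correlations used log2(CPM + 0.1) and permutations. Samples of the same number come from 1 mouse, and outside the Nacc each library matched its own mouse, so that the mouse was used as a block in an alternative fit of the region levels. DESeq2 1.42.0, limma 3.58.1, other size factors, no filter and fewer libraries were the other alternatives. Scripts were tested on simulated data. Other steps ran in Python 3.11.15 with pandas 2.3.3 and Matplotlib 3.10.9.

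The text names all 10 genes in every region, those of the lists of other endocannabinoid and opioid genes that were called (up to 5 per comparison), the 4 peptide precursors and the genes most like each of the 10. Genes and lists were chosen with earlier results of these data known. Gpr18 of these lists did not pass the filter, and Gpr119, called in 3 regions at a mean of at most 0.0624 CPM, is not described further.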

Additional observations from a re-analysis of the deposited data

Results flagged for a closer look

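A library was singled out where the highest or lowest value of a gene in a group of 6 or 7 mice lay far from the nearest of the others by Dixon's test. This happened in 37 of 360 groups (10.3%). The nominal rate of about 1 in 20 holds for independent, normally distributed values, whereas several flags fell in the same libraries. The share over all genes is not given here, so the count is not read as an excess in these 10 genes. The libraries are named by their mouse, and the nearest value of the same group is given beside each.

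The DMT library of mouse 15 (ELA_SAFit2, NoInteraction) stood out for 5 genes. Dagla was at 123.6 CPM (nearest 181.6), Mgll at 158.6 CPM (235.9), Napepld at 31.8 CPM (50.7) and Faah at 50.4 CPM (67.6), all low, and Oprl1 was high at 67.6 CPM (55.6). Its thalamic markers, at 1678 CPM, were the lowest of the 41 DMT libraries, and its medial habenula markers stood at 315.9 CPM against a median of 84.4 CPM. The part of this makeup in the 5 values was not tested. In the same mouse Mgll in the mPFC (180.7 CPM, nearest 223.2) and Oprk1 in the BLA (10.3 CPM, nearest 28.6) were low.

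In the ACC both libraries that stood apart from the region were singled out for 3 genes each. Mouse 89 (Ctrl_Veh, SocialInteraction) was low in Cnr1 at 181.8 CPM (nearest 226.1), in Oprm1 at 0.221 CPM (1.60) and in Oprd1 at 10.5 CPM (29.2), and its cholecystokinin interneuron markers, 551.7 CPM, were the highest of the region. Mouse 61 (ELA_Veh, SocialInteraction) was low in Cnr1 at 181.4 CPM (nearest 243.0), in Dagla at 138.2 CPM (160.5) and in Oprd1 at 23 CPM (33.6). It held 796.4 CPM of striatal markers against a regional median of 130.5 CPM. Their part in these values was not tested. Mouse 89 was also low in Dagla in the DMT (167.2 CPM, nearest 189.5) and in Faah in the BLA (60.9 CPM, nearest 84.8).

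The mPFC library of mouse 79 (ELA_SAFit2, SocialInteraction) was low in Dagla at 104.3 CPM (nearest 141.3), in Mgll at 190.7 CPM (233.9) and in Oprl1 at 34.7 CPM (42.8), and its olfactory bulb markers, 414.5 CPM, were the highest of the region. In other mPFC libraries Oprm1 was low at 1.80 CPM in mouse 57 (Ctrl_Veh, SocialInteraction, nearest 2.52) and at 1.5 CPM in mouse 71 (ELA_SAFit2, NoInteraction, nearest 2.47), and Oprl1 was low at 38.3 CPM in mouse 41 (Ctrl_Veh, NoInteraction, nearest 44.2).

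In the DMT the other values were Cnr1 at 33 CPM in mouse 91 (nearest 39.8) and Daglb at 30.9 CPM (33) and Oprm1 at 10.3 CPM (16.4) in mouse 93, both ELA_Veh with social interaction and low. In NoInteraction mice Oprd1 was low at 0.104 CPM in mouse 69 (ELA_Veh, nearest 0.478), and Daglb at 37.4 CPM (34.8) and Faah at 87.2 CPM (71.9) in mouse 97 and Oprl1 at 59.4 CPM (52.4) in mouse 9, both Ctrl_Veh, were high. Oprm1 was low at 4.78 CPM in mouse 31 (ELA_SAFit2, SocialInteraction, nearest 13.5).

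In the Nacc Dagla was high at 123.0 CPM (nearest 102.7) and Oprm1 low at 4.16 CPM (6.77) in mouse 93, and Oprd1 was low at 20.7 CPM (27.6) in mouse 59, whose library matched another mouse, all ELA_Veh with social interaction. Daglb was high at 43.7 CPM (34.1) in mouse 99 (ELA_Veh, NoInteraction), and Oprl1 low at 33.9 CPM (39.2) in mouse 7 (ELA_SAFit2, NoInteraction). The last 3 were low, Napepld at 31.7 CPM in the vHipp of mouse 21 (ELA_Veh, SocialInteraction, nearest 42.2), a library that stood apart, Faah at 168.9 CPM in the vHipp of mouse 87 (ELA_SAFit2, NoInteraction, nearest 196.9) and Cnr1 at 146.0 CPM in the BLA of mouse 1 (Ctrl_Veh, NoInteraction, nearest 219.6). No difference of an effect between the sets passed the adjusted threshold.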

How the results depend on the processing

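Calls of region levels were 18 in every alternative, the replicate block of mice included (18), and the block changed the call of no regional contrast. Of 150 pairs of regions 137 were called, 139 with the block, and 138 or 139 under the other 5 alternatives. The count for the response to social interaction was 1, and 2 without the libraries that stand apart (Dagla in the ACC at 0.11, edgeR adjusted p = 0.00500) and 2 with marker scores as covariates in the BLA (Mgll at 0.10, edgeR adjusted p = 0.0459). Both alternatives were added after the values were seen. For the regions summed it was 1, and 0 without the filter, where Oprl1 stood at −0.05 with edgeR's adjusted p at 0.0574 over more tested genes. Leaving out each mouse in turn left the count at 1 to 1 in the BLA and with the regions summed. Of the marker correlations 6 were called, and 5 with a score from ranks. The 12 mismatched Nacc libraries were found with lists of 20, 60 and 200 genes. The cause of these changes was not tested.

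Over all genes, counts of calls depended more on the tool. For ELA_Veh against Ctrl_Veh edgeR called 1 of all tests and DESeq2 27, and for ELA_SAFit2 against ELA_Veh 3 and 26. The response to social interaction had 2505 calls, and 1398 without the filter. The difference in the SAFit2 effect between sets had 22 calls, and 5 without the libraries that stand apart. Depth limits Oprd1 in the DMT and Oprm1 and Oprk1 in the vHipp, at a median of 14, 54 and 43 counts per library.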

Other observations

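The genes most like each of the 10 were also sought with regional differences included. Over all libraries Oprd1 was most like the potassium channel genes Kcnh3 (r = 0.975), Kcnh1 (0.974) and Kcnj4 (0.972), Cnr1 like Col19a1 (0.963), Nrgn (0.957) and Unc5a (0.955), and Faah like Tnks1bp1 (0.962), Olfm1 (0.959) and Slc26a4 (0.953). Olfm1 was thus among the leading 3 of Faah with and without the regional means. Oprk1 was most like Kazn under both measures (0.930 and 0.588), and Oprl1 was most like Resp18 (0.851) and then Magee1 (0.803). These are descriptions over libraries that share region, mouse and punch.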
